A study of Mus musculus with 9 samples.

Results

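The nuclear genes for the subunits of the respiratory chain and of ATP synthase were followed in primary mouse white adipocytes exposed to parathyroid hormone (PTH) or parathyroid hormone-related protein (PTHrP). Members were taken by symbol from the annotation of the array (Ndufa, Ndufb, Ndufc, Ndufs and Ndufv genes, Uqcr genes, Sdha to Sdhd, Cox4 to Cox8 genes and Atp5 genes), without the Ndufaf assembly factors and without Cox7a1 and Cox8b. The rule gave 79 of the 18193 genes measured, of which 35 carry complex I names, 4 complex II, 8 complex III, 15 complex IV and 17 complex V, each represented by its brightest probe set that carries 1 symbol. The rule used no measured change. Another 7 names that match the rule (Ndufa11, Ndufa11b, Ndufb4b, Ndufb4c, Ndufs5-ps, Ndufs6 and Ndufs6b) have probe sets shared by several symbols and are given separately.

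All 9 arrays hold RNA of adipocytes grown in culture from the stromal-vascular cells of inguinal fat of male C57BL6 mice aged 30 to 35 days. All cells, controls included, had been induced for 2 days with dexamethasone (1 µM), isobutylmethylxanthine (0.5 µM as labelled), rosiglitazone (1 µM) and insulin (5 µg/mL). They stayed in the last 2 agents until day 6, when medium alone followed. On day 8, 3 samples received 100 ng/mL PTH(1-34) and 3 received 100 ng/mL PTHrP(1-34), the amino-terminal peptides of residues 1 to 34, for 4 h, and 3 served as controls, whose vehicle is not named. The labels call the 3 samples of a group biological replicates without saying whether they came from separate mice or cultures, so what the p-values reflect is spread among these samples, which may be technical.

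Oxidative phosphorylation passes electrons from NADH through complex I and from succinate through complex II to ubiquinone, on through complex III to cytochrome c, and through complex IV to oxygen. Complexes I, III and IV pump protons, and complex V, the ATP synthase, makes ATP as protons return. Brown and beige adipocytes are rich in mitochondria and dissipate the same proton gradient as heat through Ucp1, and their subunit genes are known targets of the nuclear respiratory factors, of the estrogen-related receptors and of their coactivator Ppargc1a. Both peptides signal through the PTH1 receptor, which raises cAMP.

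The promoters of a few members are shown because these regulators, and the cAMP response element (CRE), have known recognition sequences. All 79 members were matched to RefSeq by gene identifier. They lie on 19 chromosomes, with at most 6 on 1 chromosome. Their median genomic span was 7.28 kb, against 20.3 kb for the measured genes, and 68 of the 79 were shorter than that. RefSeq promoter windows (GRCm38.p6, 250 bases before to 50 after a start) were available for 64 members, with the first listed start used for each gene. The median GC content of these windows was 58.8%, against 58.7% for all measured genes. Exact matches were sought on both strands. The CRE palindrome TGACGTCA was found in 3 members (4.69%) and in 1.88% of the 27025 genes with a window, or 2.69% of genes on the arrays. It was found in 2.38% of the 546 genes with a window that rose with the peptides combined. The nuclear respiratory factor 1 core GCGCATGCG was found in 7 members (10.9%), against 1.81% of all genes and 2.85% of genes on the arrays. The estrogen-related receptor element TCAAGGTCA was found in 2 members (3.12%), against 0.407% of all genes and 0.355% of genes on the arrays, and the ETS core CCGGAAGT in 5 (7.81%), against 4% of all genes and 6.17% of genes on the arrays. No motif contains another. In Cox6a1, Atp5g2 and Atp5k the nuclear respiratory factor 1 core matches on both strands with overlap, so that 10 letters are in capitals. A match describes the letters and is not evidence of binding. The first 2 stretches below hold the CRE and the next 3 the nuclear respiratory factor 1 core. Members whose match lies inside the gene as annotated, because the listed start is not the outermost, are not shown. Uqcr11 and Uqcrc1, whose nuclear respiratory factor 1 core reaches across or follows the listed start, are not shown either. Nor are Ndufa8 and Atp5l, whose nuclear respiratory factor 1 core also lies before the annotated gene. Each stretch is 60 bases long, lies before the annotated gene and reads 5′ to 3′ on the gene's strand, with the matched letters in capitals.
Ndufb2, chr6:39592505-39592564, plus strand: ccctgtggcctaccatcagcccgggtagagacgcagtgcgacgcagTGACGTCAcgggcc
Uqcrfs1, chr13:30545317-30545376, minus strand: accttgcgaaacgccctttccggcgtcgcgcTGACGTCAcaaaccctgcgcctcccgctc
Cox6a1, chr5:115349086-115349145, minus strand: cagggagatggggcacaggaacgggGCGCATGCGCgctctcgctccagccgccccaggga
Atp5g2, chr15:102671055-102671114, minus strand: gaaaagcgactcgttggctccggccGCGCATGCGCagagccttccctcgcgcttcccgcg
Atp5k, chr5:108434415-108434474, minus strand: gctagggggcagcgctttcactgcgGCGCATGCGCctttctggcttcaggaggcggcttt
Signals of 3 of the genes with these matches, picked after their values were seen, moved little. Ndufa10, whose window holds the CRE, a complex I accessory subunit, had a mean signal of 4838 ± 23.9 (SD of 3 arrays, as for every mean below) without peptide, 4842 ± 183.5 with PTH and 4864 ± 42.6 with PTHrP. Ndufb2, another complex I accessory subunit, had 2644 ± 46.6, 2649 ± 65.5 and 2639 ± 65.0. Among the promoters with the nuclear respiratory factor 1 core, Atp5k, subunit e of the ATP synthase, gave 6635 ± 266.2, 6667 ± 116.5 and 6636 ± 83.3. In these 3 genes no difference from control exceeded the larger SD of the groups compared. Other matched genes moved further with PTH. Uqcrfs1, with the CRE, went from 6306 ± 114.5 in controls to 6618 ± 193.4. With the nuclear respiratory factor 1 core, Ndufa8 went from 3738 ± 133.5 to 3899 ± 58.9, and Atp5g2 fell from 4276 ± 52.8 to 4147 ± 100.1. None of them passed the test given below.

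The median signal over all probe sets other than the array controls lay between 48.2 and 52.6 in the 9 arrays. The ratio of the 3′ to the 5′ actin control probe sets, which reads RNA integrity and labelling, was 1.445 to 1.509 in controls, 1.593 to 1.650 with PTH and 1.516 to 1.607 with PTHrP, so it moved with treatment. The same ratio for Gapdh was 0.931 to 0.988 and overlapped between groups. The cultures carried adipocyte markers: all 6 measured of 8 listed were above the dimmest 40% of probe sets, with a summed signal of 52169 to 53867 in controls, 53313 to 56104 with PTH and 51429 to 54409 with PTHrP. Of them, Cidec rose with both peptides. Preadipocyte and fibroblast markers, all 7 measured of 8 listed above that level, summed to 37917 to 38492, 37278 to 38162 and 36078 to 39038. Proliferation markers summed to 5129 to 5290, 4709 to 5247 and 4367 to 5181. The bulk signals therefore need not be those of adipocytes alone. Markers of smooth muscle and pericytes summed to 21937 to 22511 in controls, 20819 to 21075 with PTH and 19874 to 21057 with PTHrP, and Myh11 fell with both peptides. Skeletal muscle markers summed to 449 to 568, 382 to 441 and 389 to 419, and Acta1 fell with both. Endothelial markers summed to 261 to 298, 199 to 233 and 199 to 278, and macrophage markers to 992 to 1093, 1066 to 1211 and 1057 to 1185. Of the macrophage markers, Csf1r passed with the peptides combined (0.28, adjusted p = 0.0320) and with neither alone (0.29, adjusted p = 0.0644, and 0.28, adjusted p = 0.0753). Endothelial, lymphocyte, fibroblast and proliferation markers gave no gene past the test with PTH, PTHrP or both combined. The part of the actin ratio and of these markers in the results on mitochondrial genes was not tested. In a bulk culture, fewer cells of a type and less RNA per cell cannot be told apart. Ucp1, the uncoupling protein of brown and beige fat, had signals of 24.0, 11.8 and 14.2 in the controls, 1520, 1789 and 2133 with PTH and 1684, 1457 and 1716 with PTHrP. The log2 rise of Ucp1 by 5.81 (adjusted p = 4.51e-06, limma) and 5.66 (adjusted p = 5.61e-06) depends on the pseudocount because the controls are among the dimmest 40% of probe sets: it was 6.73 and 6.57 with a pseudocount of 1, and 4.53 and 4.38 with 64. The 7 brown and beige fat markers, Ucp1 among them, summed to 4296 to 4806 in controls, 6066 to 7438 with PTH and 5997 to 6296 with PTHrP. Most of the rise of this sum was that of Ucp1. With PTH all 7 read higher than control, and with PTHrP 5 read higher and 2 lower. Of the 7, 3 rose with both peptides: Ucp1, Dio2, the deiodinase that activates thyroid hormone (0.94 with each, adjusted p = 2.49e-04 and 2.38e-04), and Elovl3, a fatty acid elongase (0.60 and 0.55, adjusted p = 0.0265 and 0.0415). The other 4 did not pass.

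The subunit genes were strongly expressed before any peptide was given, and none passed the test with either. In controls the median member had a signal of 5474. By the mean over all 9 arrays, 70 of the 79 members had a signal above 1000, and 77 lay above the dimmest 40% of genes. The exceptions were Ndufb4, whose own single-symbol probe set read 19.1 ± 6.17, and Cox7b2, a testis-type subunit, at 10.4 ± 1.65, with wide intervals (Cox7b2 -0.31 to 0.84 with PTH, Ndufb4 -0.44 to 0.40). Changes are given on the scale of log2(signal + 16) and were tested with limma across all genes with Benjamini-Hochberg adjustment at 0.05. With PTH, 0 of 79 members rose and 0 fell, where 2.96% of all genes rose and 3.14% fell. At an unadjusted p below 0.05, 1 member passed, against 19.0% of all genes. With PTHrP, 0 members rose or fell, against 2.54% and 3.03% of all genes, and 2 members passed at an unadjusted p below 0.05, against 18.3%. With the peptides combined, where 8.40% of genes passed, 0 members did, and 1 did without adjustment, against 21.2% of genes. The smallest adjusted p among the members was 0.180 with PTH, 0.178 with PTHrP and 0.132 with both combined.

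The precision of these estimates was high. The median standard error of a member's log2 change was 0.047, against 0.085 over all genes. Most members were far brighter than the typical gene, and no comparison with equally bright genes was made. For PTH the 95% interval lay wholly within a 20% change in either direction (0.26 on the log2 scale) for 74 of the 79 members, and for 36.0% of all genes. For PTHrP this held for 72 members and 36.6% of genes. The intervals reaching further belonged to Ndufa4l2, Ndufb4, Cox6a2 and Cox7b2 with both peptides, to Cox7c with PTH, and to Cox4i2, Cox7a2l and Sdhc with PTHrP. All 79 intervals lay within a 2-fold change with each peptide. The estimate itself was under 10% for 76 members with PTH and 77 with PTHrP.

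**Figure D1:**
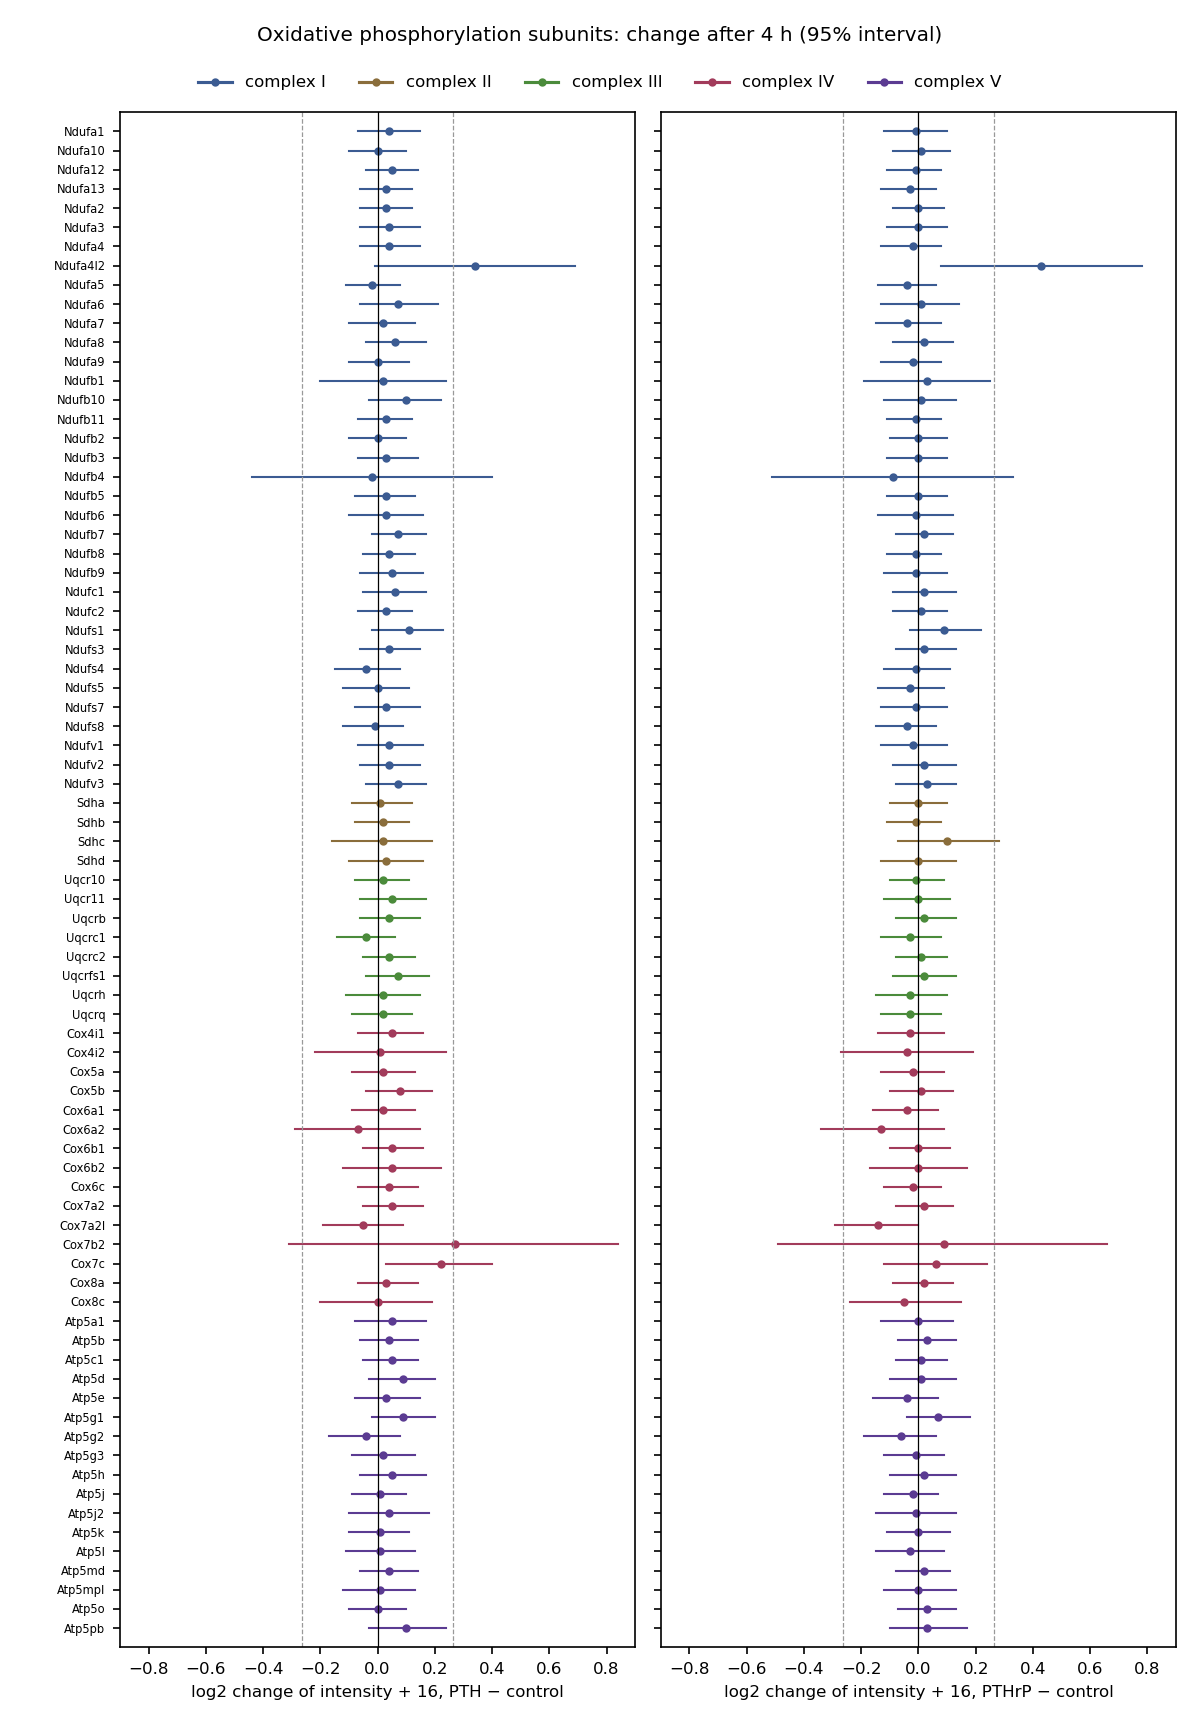
Log2 change of signal (+16) of the 79 subunit genes with PTH (left) and PTHrP (right) against control, with 95% intervals from limma, coloured by complex; dashed lines mark a 20% change. Most intervals sit within the dashed lines, and Ndufa4l2 lies farthest to the right with either peptide (0.34 and 0.43).

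The members tended to lie slightly above control with PTH and on both sides of it with PTHrP. With PTH, 69 were higher and 10 lower (87.3% higher), with a median log2 change of 0.035 and a range of -0.07 to 0.34. Over all genes 49.3% were higher, with a median of -0.003. With PTHrP, 36 were higher and 43 lower (45.6% higher), with a median of -0.003 and a range of -0.14 to 0.43. Over all genes 48.5% were higher, with a median of -0.005. In the direct comparison, 72 members (91.1%) were higher with PTH than with PTHrP, with a median log2 difference of 0.038. Over all genes 53.0% were higher, with a median of 0.006. Without the dimmest 40% of genes the share was 57.6%, with a median of 0.011. No member passed the test there, no gene did at all (0.00%), and 0 members passed without adjustment, against 4.01% of genes.

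The array medians showed how small this shift was. The members' median deviation from their own 9-array means was 0.013, -0.037 and -0.010 (log2) in the 3 control arrays. It was -0.011, 0.054 and 0.033 with PTH. With PTHrP it was -0.000, -0.015 and -0.035. PTH arrays 2 and 3 lay above every other array, and PTH array 1 lay below control arrays 1 and 3, so the groups overlapped. Within complexes the medians with PTH were 0.031 for complex I, 0.016 for II, 0.029 for III, 0.037 for IV and 0.040 for V. With PTHrP they were -0.004, 0.000, -0.007, -0.018 and 0.001. The pooled SD of the array medians within groups was 0.026. That is a spread of single arrays over all members and does not measure differences between complexes, which were not tested.

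**Figure D2:**
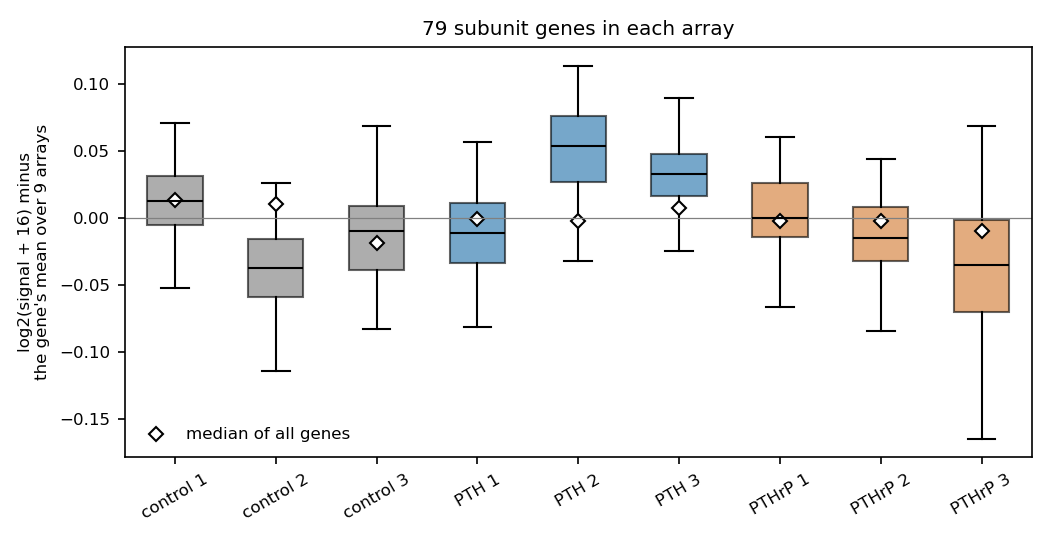
Deviation of each of the 79 subunit genes from its own mean over the 9 arrays, as boxes (median, quartiles, whiskers to 1.5 interquartile ranges, points beyond not drawn) for each array, with diamonds for the median of all genes. The boxes of PTH arrays 2 and 3 sit highest (medians 0.054 and 0.033), and that of PTH array 1 (-0.011) lies among the controls.

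Overlap of the arrays was also counted directly. With PTH, all 3 treated arrays were above all 3 controls for 12 members (15.2%), against 12.8% of all genes, and below them for 0, against 13.2%. With PTHrP, 3 members (3.80%) were above, against 10.4% of genes, and 2 (2.53%) below, against 12.0%. The share above control with PTH is near that of all genes, and the count fell from 12 to 5 when each array was centred on its median. The 2 below control with PTHrP were Ndufa13 and Ndufa5, and 0 were with that centring. The 12 were Ndufa12, Ndufa2, Ndufa4l2, Ndufa8, Ndufb7, Ndufs1, Uqcrc2, Cox7c, Atp5b, Atp5g1, Atp5h and Atp5pb, and Ndufa4l2, Ndufs1 and Atp5g1 were also the 3 above control with PTHrP.

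The genes with names of complex I, the NADH dehydrogenase, included the member with the largest estimates, Ndufa4l2, placed there by its symbol alone. Ndufa4l2 is a paralog of Ndufa4 known for its induction by hypoxia and for lowering complex I activity. Its signals were 446.7, 469.3 and 454.9 in controls, 509.7, 638.8 and 610.3 with PTH and 572.5, 802.9 and 516.4 with PTHrP. All 6 treated arrays were above all 3 controls, and the second PTHrP array stood highest. The log2 change was 0.34 with PTH (95% interval -0.01 to 0.69, adjusted p = 0.275), 0.43 with PTHrP (0.08 to 0.78, adjusted p = 0.178) and 0.38 ± 0.13 (SE) with both combined (adjusted p = 0.132). It did not pass with either peptide alone in any of 16 alternatives, where its adjusted p ran from 0.0819 to 0.528 with PTH and from 0.100 to 0.315 with PTHrP. Ndufa4 itself, now known as a subunit of complex IV, had signals of 6184, 5899 and 6117 in controls, 6104, 6459 and 6213 with PTH and 6056, 6021 and 5820 with PTHrP. Its groups overlapped, with a log2 change of 0.04 (-0.06 to 0.15) and -0.02 (-0.13 to 0.08).

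Ndufs1, the largest iron-sulfur subunit of the NADH-oxidising arm, read 2253, 2142 and 2251 in controls, 2302, 2451 and 2399 with PTH, and 2486, 2271 and 2343 with PTHrP. Every treated array was above every control. Its log2 change was 0.11 (-0.02 to 0.23, adjusted p = 0.337) and 0.09 (-0.03 to 0.22, adjusted p = 0.411), which did not pass. Ndufs8, an iron-sulfur subunit nearer the ubiquinone site, had means of 4456 ± 140.8, 4410 ± 136.8 and 4319 ± 69.2 in controls, PTH and PTHrP, with overlapping arrays. The accessory subunit Ndufa12 had 5652, 5562 and 5677 in controls, 5779, 5859 and 5868 with PTH and 5692, 5515 and 5512 with PTHrP. Its PTH arrays lay above the controls and its PTHrP arrays on both sides of them, 1 above and 2 below, with log2 changes of 0.05 and -0.01 (adjusted p = 0.582 and 0.901). Ndufa13 had PTHrP signals of 5954, 5790 and 5916, all below its controls of 6083, 5965 and 6007. That difference was -0.03 on the log2 scale (adjusted p = 0.758). The other complex I members ranged from -0.04 upward with PTH and from -0.09 upward with PTHrP, and 14 of the 35 were higher with PTHrP against 30 with PTH.

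Complex II, the succinate dehydrogenase, is encoded wholly in the nucleus. Its flavoprotein Sdha read 4734 ± 84.3 in controls, 4777 ± 102.2 with PTH and 4734 ± 141.9 with PTHrP, and its iron-sulfur protein Sdhb read 5294 ± 37.2, 5358 ± 96.4 and 5246 ± 124.7. The membrane anchor Sdhc read 1697, 1634 and 1633 in controls, 1645, 1670 and 1702 with PTH and 1738, 2002 and 1608 with PTHrP. One PTHrP array of Sdhc, the second, was high and another was below all controls. Its log2 change with PTHrP was 0.10 (-0.07 to 0.28, adjusted p = 0.566). The other anchor, Sdhd, had 3737 ± 61.4, 3813 ± 166.9 and 3741 ± 213.3.

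In complex III, the ubiquinol-cytochrome c reductase, Uqcrb, a ubiquinone-binding subunit, had a signal of 13723 ± 460.2 in controls, 14146 ± 200.4 with PTH and 13946 ± 169.5 with PTHrP. Uqcrfs1, the Rieske iron-sulfur protein whose promoter holds the CRE printed above, had 6436, 6260 and 6221 in controls, 6423, 6809 and 6621 with PTH and 6667, 6324 and 6219 with PTHrP. Its arrays overlapped, and the log2 change was 0.07 (-0.04 to 0.18) and 0.02 (-0.09 to 0.13). The core protein gene Uqcrc1 was the member of this complex that read lower with PTH, at 3973 ± 115.8 in controls, 3864 ± 40.8 with PTH and 3897 ± 108.9 with PTHrP. That log2 difference of -0.04 did not pass (adjusted p = 0.727). Uqcrq, a small subunit, had 5986 ± 188.7, 6059 ± 193.1 and 5875 ± 29.9.

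Complex IV, cytochrome c oxidase, has subunits with tissue isoforms. Cox4i1, the common form of subunit 4, read 11226, 10646 and 10797 in controls, 10792, 11696 and 11281 with PTH and 10869, 10890 and 10312 with PTHrP, with log2 changes of 0.05 (-0.07 to 0.16) and -0.03 (-0.14 to 0.09). Its hypoxia-responsive isoform Cox4i2 read 107.7 ± 12.9, 108.7 ± 14.4 and 103.8 ± 5.70. Cox6a1, the common form of subunit 6a, read 13335 ± 339.9, 13522 ± 435.1 and 12930 ± 440.7, and Cox6a2, the heart and skeletal muscle form, read 206.8 ± 29.4, 195.3 ± 8.85 and 187.4 ± 13.1. For Cox6a2 the 95% intervals of -0.29 to 0.15 and -0.34 to 0.09 leave room for a larger fall than in most members. Cox6b1 read 11728 ± 446.7, 12177 ± 158.9 and 11757 ± 91.4, and its testis-type counterpart Cox6b2 read 106.6 ± 12.7, 110.7 ± 1.93 and 106.3 ± 4.18. Neither member of these isoform pairs passed with either peptide. The pairs are read by different probe sets, so their signals give no ratio of one form to the other.

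A pair of complex IV members passed an unadjusted p of 0.05 with 1 peptide each. Cox7c, a small structural subunit, had signals of 149.1, 131.9 and 133.6 in controls, 153.3, 166.3 and 169.7 with PTH and 159.6, 144.5 and 130.4 with PTHrP. All PTH arrays were above all controls and the PTHrP arrays overlapped them. The log2 change with PTH was 0.22 (0.03 to 0.40), with an unadjusted p of 0.0253 and an adjusted p of 0.180 by limma. With PTHrP it was 0.06 (-0.12 to 0.24). Another, dimmer probe set of Cox7c read 0.09 with PTH and -0.05 with PTHrP. Both probe sets were dim, with mean signals of 148.7 and 48.4. The small subunits Cox8a, Cox6c and Cox7a2 had 8143, 9774 and 10418. Whether the Cox7c probe sets read its main transcript was not tested. Cox7a2l, known for joining complex III and complex IV into supercomplexes, had 3699, 3380 and 3805 in controls, 3459, 3676 and 3386 with PTH and 3178, 3424 and 3245 with PTHrP. Of its PTHrP arrays 1 lay above the lowest control. Its log2 change with PTHrP was -0.14 (-0.29 to -0.00, adjusted p = 0.272), and with PTH it was -0.05 (-0.19 to 0.09). The other probe sets of Cox7a2l read -0.04 and -0.06 with PTHrP.

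In complex V, the c-ring of the membrane rotor is encoded by Atp5g1, Atp5g2 and Atp5g3, whose mature proteins are identical. Atp5g1 read 2490, 2425 and 2547 in controls, 2657, 2756 and 2552 with PTH and 2636, 2629 and 2561 with PTHrP, so that every treated array exceeded every control. Its log2 change was 0.09 (-0.02 to 0.20, adjusted p = 0.343) and 0.07 (-0.04 to 0.18, adjusted p = 0.517). Atp5g2 read 4336, 4237 and 4254 in controls, 4050, 4250 and 4140 with PTH and 3982, 4380 and 3923 with PTHrP, with log2 changes of -0.04 and -0.06 (adjusted p = 0.746 and 0.615). Atp5g3 read 8985 ± 334.9, 9096 ± 202.6 and 8906 ± 143.9. The stator subunit b gene, Atp5pb, had 7926, 7730 and 8093 in controls, 8330, 8470 and 8741 with PTH and 8271, 8593 and 7478 with PTHrP. Its PTH arrays were above the controls (log2 change 0.10, -0.03 to 0.24, adjusted p = 0.407), and its PTHrP arrays spanned them. Atp5l, subunit g, read 8017 ± 209.9, 8093 ± 384.2 and 7833 ± 206.0.

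**Figure D3:**
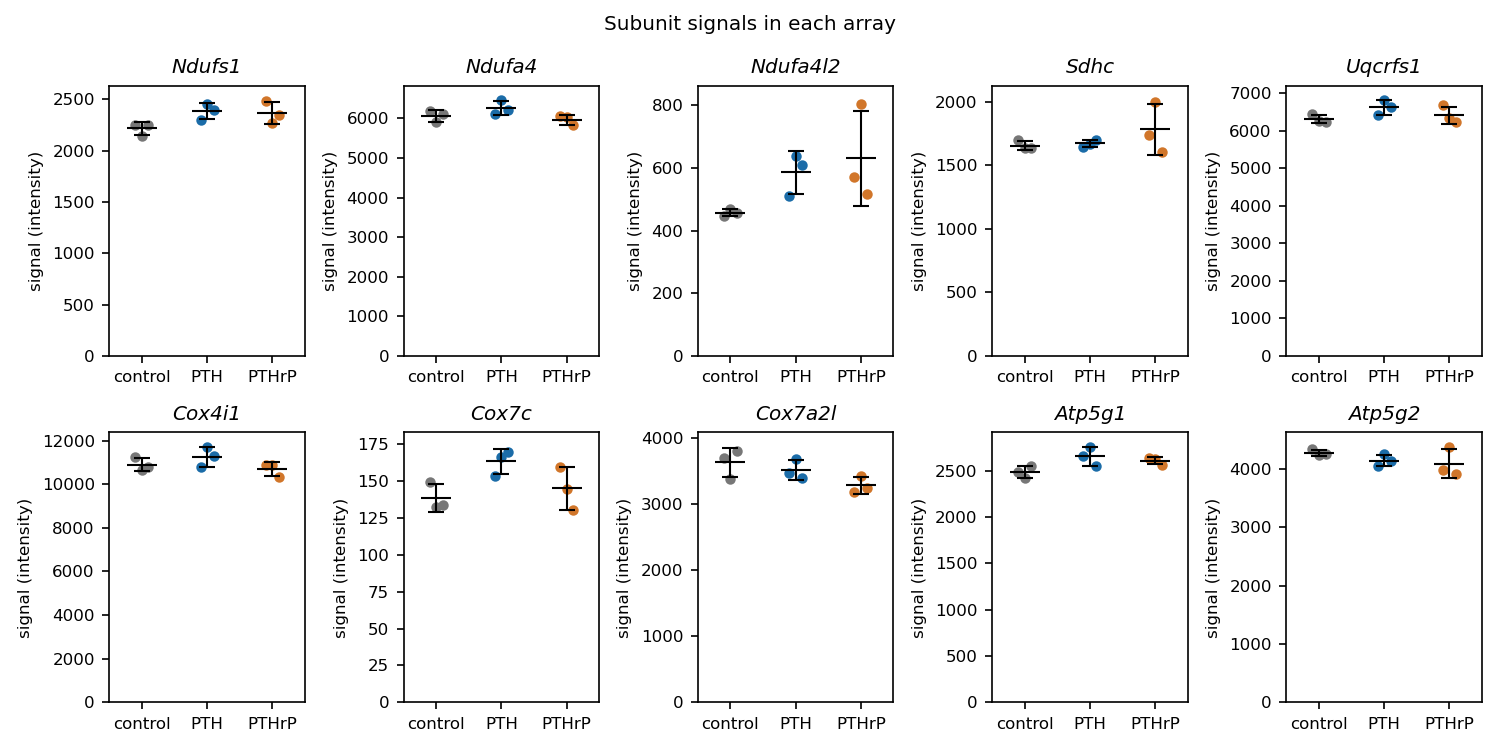
Signal (intensity, linear axis from 0) of 10 subunit genes in each of the 9 arrays, as points, with the mean and SD (n = 3) of control, PTH and PTHrP as bars. Ndufa4l2 shows the widest gap from its controls (457 against 586.3 and 630.6), and most other panels are level.

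Other probe sets of the same genes and the shared probe sets did not pass the test either. Of the members, 48 had more than 1 probe set, which gave 83 further probe sets, of which 74 were above the dim level. None of the 83 passed the test, and the 74 ranged from -0.28 to 0.14 on the log2 scale with PTH, with a median of 0.029. In 53 of the 74 the sign with PTH was that of the brightest probe set. The shared probe sets gave the missing level for Ndufb4: the brighter pair read jointly for Ndufb4, Ndufb4b and Ndufb4c had control means of 4620 and 4780, with log2 changes of 0.07 and 0.02 with PTH. The brighter shared set for Ndufa11 and Ndufa11b read 2628 in controls, 2606 with PTH and 2613 with PTHrP, and that for Ndufs6 and Ndufs6b read 3169, 3246 and 3133. At low signal, a set shared by Ndufa13 and Yjefn3 read 27.73, 41.53 and 29.15, with log2 changes of 0.41 and 0.06. Another, shared by Ndufb2 and Adck2, had 0.19 and 0.22. The isoforms outside the rule, Cox7a1 and Cox8b, known as muscle and brown fat forms, had log2 changes of 0.09 and 0.19 with PTH (adjusted p = 0.551 and 0.269) and of -0.01 each with PTHrP. Between the peptides, PTH minus PTHrP, Cox7a1 had 0.10 (-0.06 to 0.26). Cox8b had 0.20 (0.01 to 0.39), with an unadjusted p of 0.0420 and an adjusted p of 0.999 by limma. Among the 14 measured carriers and subunits outside the rule, 0 passed. The electron carrier Cycs, cytochrome c, read 8976, 9722 and 9590 as group means (0.12, adjusted p = 0.358, and 0.10, adjusted p = 0.471). Etfdh, which feeds electrons of fatty acid oxidation to ubiquinone, had 0.14 and 0.10 (adjusted p = 0.221 and 0.434), and Gpd2, the mitochondrial glycerol phosphate dehydrogenase, had -0.03 and -0.07 (adjusted p = 0.868 and 0.655). Of the 26 names listed for subunits encoded by mitochondrial DNA, alternative spellings included, ND5 was measured, at group means of 12378, 12267 and 12137, with log2 changes of -0.01 and -0.03.

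Genes that build the complexes, which are not part of them, gave calls where the subunits gave none. Of 41 assembly factors measured of 42 listed, 5 rose and 0 fell with PTH, beside 2.96% of all genes that rose, and 38 were higher than control, with a median of 0.053. At an unadjusted p below 0.05, 14 were higher, where 9.19% of all genes were. With PTHrP, 3 rose and 0 fell, beside 2.54% of all genes, with a median of 0.042, and 11 were higher at an unadjusted p below 0.05, where 8.22% of all genes were. Both medians lay within 0.06 of zero, and the difference between assembly factors and subunits was not tested.

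Ndufaf4, which acts early in complex I assembly, had signals of 722.6, 659.5 and 690.9 in controls, 905.0, 964.3 and 994.8 with PTH and 932.7, 819.6 and 909.8 with PTHrP. It rose by 0.46 ± 0.07 (SE) with PTH (adjusted p = 0.00634) and 0.35 ± 0.07 with PTHrP (adjusted p = 0.0209). Sco2, a copper chaperone of complex IV, had 228.4, 230.3 and 228.1 in controls, 284.2, 291.0 and 297.3 with PTH and 270.3, 269.1 and 282.4 with PTHrP. It rose by 0.33 ± 0.04 (adjusted p = 0.00430) and 0.24 ± 0.04 (adjusted p = 0.0153). In both genes all treated arrays exceeded all controls, and the calls with PTH held in all 20 alternatives run. With PTHrP the call of Ndufaf4 held in 14 of 20 and that of Sco2 in 16 of 20.

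The other 3 calls were less firm. Cox10, which makes heme for complex IV, rose by 0.32 (adjusted p = 0.0273) and 0.33 (adjusted p = 0.0239), from control signals of 319.9, 309.3 and 289.0 to 391.8, 377.9 and 384.6 with PTH and 378.2, 425.3 and 367.9 with PTHrP. Its calls held in 13 and 12 of 20 alternatives, and averaging its probe sets brought the change with PTH to 0.08. Sco1, the other copper chaperone, rose by 0.29 with PTH (adjusted p = 0.0314), and its 0.23 with PTHrP did not pass (adjusted p = 0.0777). Ndufaf1, a complex I assembly factor, rose by 0.22 with PTH (adjusted p = 0.0293) and had 0.12 with PTHrP (adjusted p = 0.220). Their calls with PTH held in 12 and 10 of 20 alternatives. The number of assembly factors that rose with PTH fell from 5 to 3 without PTH array 1 or PTHrP array 1, and to 2 without control array 2, control array 3, PTH array 2 or PTH array 3. With PTHrP it fell from 3 to 0 without control array 2 or PTHrP array 1, to 1 without control array 3, and to 2 without PTH array 3, PTHrP array 2 or PTHrP array 3.

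**Figure D4:**
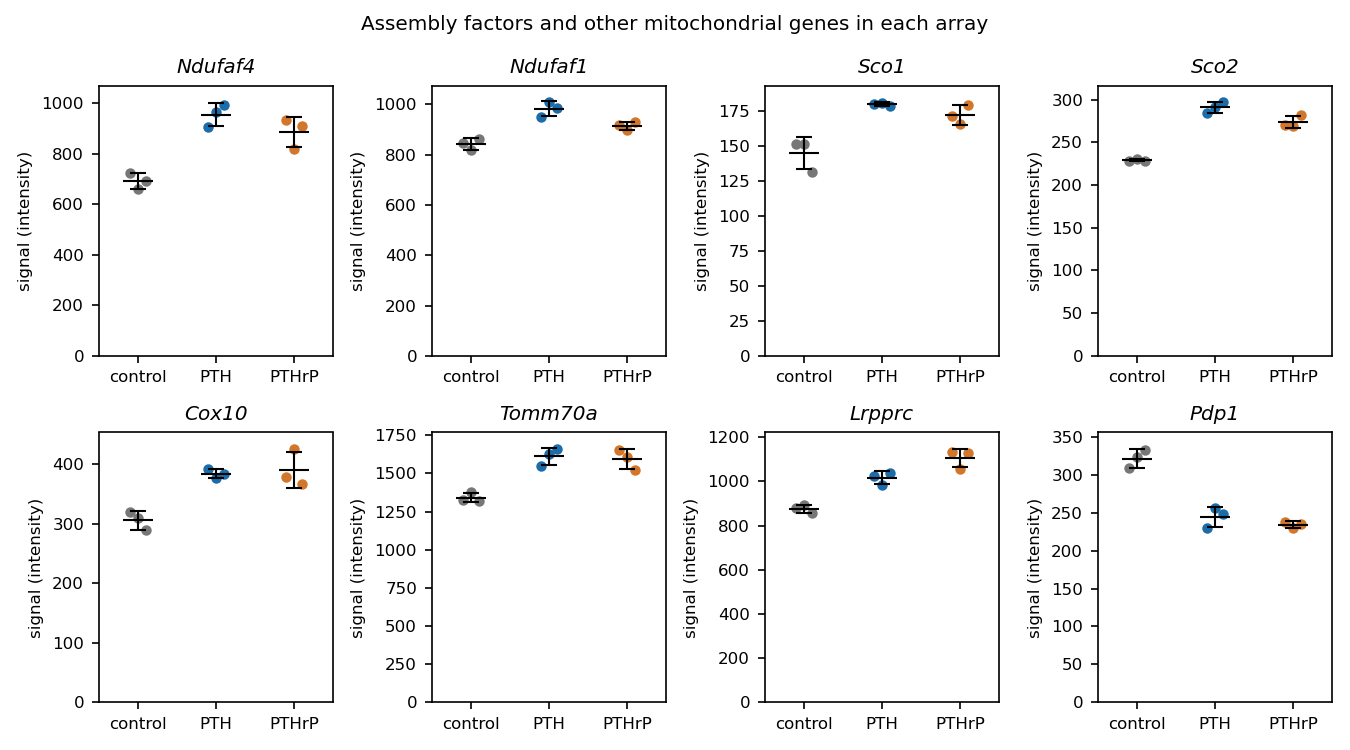
Signal (intensity, linear axis from 0) in each array of 5 assembly factors and of Tomm70a, Lrpprc and Pdp1, as points, with the mean and SD (n = 3) of control, PTH and PTHrP as bars. The treated points of Ndufaf4 and Sco2 lie wholly above the controls, and those of Pdp1 wholly below.

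The remaining mitochondrial lists gave 1 or 2 calls each with PTH. Over all genes 2.96% rose and 3.14% fell with PTH, and 2.54% and 3.03% with PTHrP. In a list of 25 or 26 genes, 1 call is near these shares. Among 27 regulators of mitochondrial biogenesis, Polrmt, the mitochondrial RNA polymerase, rose with PTH (0.26, adjusted p = 0.0337) and had 0.21 with PTHrP (adjusted p = 0.0791), and Lrpprc, which stabilises mitochondrial mRNA, rose with PTH (0.21, adjusted p = 0.0427) and PTHrP (0.33, adjusted p = 0.00690). Averaging the probe sets of Polrmt brought its change with PTH to 0.09, and the call held in 9 of 20 alternatives, as did that of Lrpprc with PTH. The coactivator Ppargc1a read 243.9, 210.3 and 235.7 in controls, 246.2, 261.1 and 270.7 with PTH and 276.8, 244.6 and 246.0 with PTHrP, and its 0.16 and 0.14 did not pass (adjusted p = 0.274 and 0.355). Esrra, its partner estrogen-related receptor, had 0.26 and 0.20 (adjusted p = 0.173 and 0.307), and Tfam, the mitochondrial transcription factor, had 0.07 and 0.04 (adjusted p = 0.508 and 0.756). Of 25 tricarboxylic acid cycle and pyruvate dehydrogenase genes measured of 27 listed, Pdp1, the phosphatase that activates pyruvate dehydrogenase, fell by 0.37 with PTH (adjusted p = 0.00617) and by 0.43 with PTHrP (adjusted p = 0.00366), and none rose. Both calls of Pdp1 held in all 20 alternatives. Of 26 genes of coenzyme Q synthesis, import and mitochondrial ribosomes measured of 27, Tomm70a, an import receptor, rose by 0.26 and 0.25 (adjusted p = 0.0231 and 0.0311). Of 17 uncoupling and quality control genes measured of 21, Ucp1 rose with both, and Sod2, the mitochondrial superoxide dismutase, rose with PTH (0.24, adjusted p = 0.0179) and had 0.19 with PTHrP (adjusted p = 0.0501). Tomm70a kept its calls in 13 of 20 alternatives with PTH and 9 with PTHrP, and Sod2 its call with PTH in 15. With PTHrP Sod2 passed in 5 of 20 and Polrmt in 3.

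**Figure D5:**
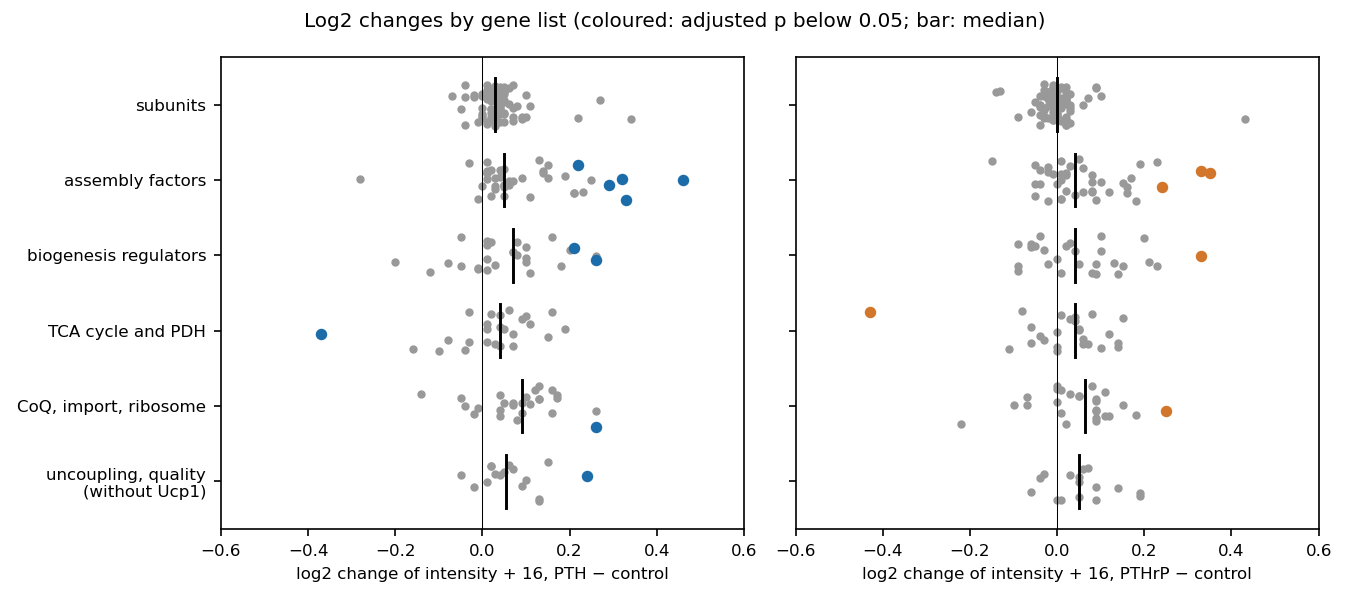
Log2 change of signal (+16) against control of each gene in 6 lists with PTH (left) and PTHrP (right); points in colour passed the test, grey points did not, vertical bars are list medians and Ucp1 (5.81 and 5.66, pseudocount 16) is left out. The 79 subunits show no coloured point, and the assembly factors show 5 with PTH and 3 with PTHrP.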

How the data were processed

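The deposited series table gives 1 intensity per probe set and array, on a linear scale, for a mouse Affymetrix array of 45101 probe sets; how they were summarised and scaled is not given in the sources used. Probe sets were named from the platform annotation: 34945 carry 1 symbol, 932 several and 9160 none, and 64 array controls were left out. Genes were represented by the brightest probe set with 1 symbol (18193 genes), and values were taken as log2(intensity + 16) with no further normalization. limma 3.58.1 in R 4.3.3 (lmFit, eBayes) was fitted to all genes and all 3 groups of 3 arrays, with Benjamini-Hochberg adjustment at 0.05; it was tested on simulated data. Arrays hold no read depth, so their number limits the precision. Columns were matched to samples by accession. Python 3.11.15 and matplotlib 3.10.9 drew the figures.

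The members named with values were, in each complex, the 2 highest and 2 lowest estimates for both peptides combined, the 2 with the smallest p between peptides, the isoform pairs Cox4i1 and Cox4i2, Cox6a1 and Cox6a2, Cox6b1 and Cox6b2, Ndufa4 and Ndufa4l2, and the Atp5g genes; from every other mitochondrial list, the genes past the threshold with either peptide or, with none, the extremes. Cell markers are given by list, with those that passed. A few further members are named beside them (promoter matches, arrays that do not overlap), chosen after their values were seen. The members and lists were chosen with earlier results of these data known. Alternatives were a pseudocount of 1 or 64, quantile normalization, array centring (median, 75th percentile), a filter on the dimmest 40% of genes, averaged probe sets, every probe set as a feature, array weights, trended and robust variances, fits to only the groups compared, a replicate block, each array left out, and other thresholds. Whether the replicate numbers pair the samples is not known. The deviations of same-numbered arrays from their group means had correlations of -0.17 to 0.12 over all genes, which cannot settle it. The main fit used no pairing. Promoter sequences are RefSeq's for GRCm38.p6; no genome was used here, and members without a promoter window, among them Ndufa4l2 and Ndufs1, are named without sequence.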

Additional observations from a re-analysis of the deposited data

How the results depend on the processing

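The count of members past the threshold stayed at 0 in every comparison and alternative run, except that an unadjusted p below 0.05 passed 1 with PTH, 2 with PTHrP and 1 with the peptides combined. Leaving out each array kept these counts at 0. It moved the members' median log2 change between 0.023 and 0.050 with PTH, -0.017 and 0.011 with PTHrP, and 0.002 and 0.027 with both. The 69 members higher with PTH than control ranged from 56 to 72, and the 72 higher with PTH than PTHrP from 64 to 74. With a replicate block, which could pair the arrays by number, the members' median stayed at 0.035 with PTH, and assembly factors that rose went from 5 to 2 with PTH and from 3 to 0 with PTHrP. That number with PTH was 10 without the dimmest 40% of genes, 9 with a pseudocount of 64, 9 with a trended and robust variance, 3 with only the groups compared, 3 over all probe sets, 2 at an adjusted p below 0.01, and 2 to 5 with each array left out. With PTHrP it was 5 without the dimmest 40%, 5 with a pseudocount of 64, 0 with only the groups compared, 0 at 0.01, and 0 to 3 with each array left out. Members with all PTH arrays above control went from 12 to 5 under median centring. Those with all PTHrP arrays below control went from 2 to 1 under quantile normalization and to 0 under median centring and 0 under 75th percentile centring. The cause was not tested. Of 896 recomputed values of the 28 named members, 0 passed and 59 took the other sign. For the 11 genes of the other mitochondrial lists that passed with either peptide, 88 values lost the call, 10 gained it and 342 kept their side. The alternatives for the assembly factors, for these 11 genes and for the counts of higher members were added after seeing the data. Cell markers that passed were not recomputed. RNA was read at 4 h only, and 3 arrays per group limit what could be detected.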
